A study of Mus musculus with 14 samples.

Results

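The genes described here are 36 components of the signalling machinery that stands directly behind the T cell receptor. They were taken from a list of names that was chosen with earlier results of these data known. The rule that picks their rows uses no measured value, and all 36 were found among the 14449 genes of the deposited expression table. They comprise 4 receptor and CD3 chains (Cd3d, Cd3e, Cd3g, Cd247), 4 coreceptor and surface receptors (Cd4, Cd28, Cd5, Cd6), 5 kinases (Lck, Fyn, Zap70, Csk, Prkcq) and 6 adaptors (Lat, Lcp2, Grap2, Grb2, Nck1, Themis). The others are 5 exchange factors, phospholipases and actin regulators (Plcg1, Vav1, Sos1, Rasgrp1, Was), 2 genes of the NF-κB arm (Bcl10, Malt1), 3 NFAT factors (Nfatc1, Nfatc2, Nfatc3) and 7 phosphatases and ubiquitin ligases or related brakes (Ptprc, Ptpn6, Ptpn22, Ptpn2, Cbl, Cblb, Ubash3a).

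The cells were CD4+ lymph node cells sorted as positive for eGFP reported from Foxp3, the defining transcription factor of regulatory T cells (Tregs). All mice were of the BALB/c background and on postnatal day 35, and both genotypes carried the same reporter gate. Wild-type mice were compared with Il1rn-/- mice, which lack the interleukin-1 receptor antagonist, the secreted inhibitor of interleukin-1 signalling, and the study addressed Tregs in arthritis driven by interleukin-1. The library names end in the letter a or b, which the labels do not explain; these are called set a (3 wild-type and 3 Il1rn-/- libraries) and set b (4 and 4). The labels do not state whether the libraries came from separate animals, so the p-values measure the spread between libraries, which may be technical. The level of Il1rn itself was not analysed here, so the deletion was not checked by it.

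When the T cell receptor meets its ligand, the kinase Lck, brought close by the coreceptor CD4, phosphorylates the tails of the CD3 chains and of the zeta chain encoded by Cd247. Zap70 binds those tails and phosphorylates the scaffold Lat and the adaptor encoded by Lcp2 (SLP-76), which gather phospholipase C-gamma, exchange factors and actin regulators, and from there calcium, Ras and protein kinase C signals reach NFAT, AP-1 and NF-κB. Phosphatases and ubiquitin ligases set the threshold, and Tregs depend on receptor signals both for their development in the thymus and for their suppressive activity.

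Cd3d, Cd3g and Cd3e lie next to each other on mouse chromosome 9, and their promoters are shown because the level of Cd3e moved apart from that of its neighbours in the results below. The annotated start sites of Cd3g and Cd3d are 1355 bases apart, on opposite strands, and those of Cd3d and Cd3e are 27825 bases apart. The sequences are from RefSeq (GRCm38.p6), written 5′ to 3′ on the gene's own strand, and run from 250 bases before the annotated start to 50 bases after it. Capitals mark GGAA, the core of ETS factor sites, on either strand (TTCC where it lies on the other strand).
Cd3d promoter, chr9:44981536-44981835, plus strand: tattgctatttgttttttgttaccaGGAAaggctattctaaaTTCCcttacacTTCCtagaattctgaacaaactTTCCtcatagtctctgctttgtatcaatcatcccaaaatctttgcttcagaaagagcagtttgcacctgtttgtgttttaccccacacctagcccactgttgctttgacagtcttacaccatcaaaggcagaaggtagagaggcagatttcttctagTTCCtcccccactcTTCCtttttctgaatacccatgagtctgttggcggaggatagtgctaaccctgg
Cd3g promoter, chr9:44980382-44980681, minus strand: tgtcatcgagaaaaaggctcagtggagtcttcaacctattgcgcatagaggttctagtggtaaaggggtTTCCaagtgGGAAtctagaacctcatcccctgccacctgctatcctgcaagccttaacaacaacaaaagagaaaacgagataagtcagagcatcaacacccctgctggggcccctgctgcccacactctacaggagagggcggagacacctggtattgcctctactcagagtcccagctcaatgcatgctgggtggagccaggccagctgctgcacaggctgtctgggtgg
Cd3e promoter, chr9:45009562-45009861, minus strand: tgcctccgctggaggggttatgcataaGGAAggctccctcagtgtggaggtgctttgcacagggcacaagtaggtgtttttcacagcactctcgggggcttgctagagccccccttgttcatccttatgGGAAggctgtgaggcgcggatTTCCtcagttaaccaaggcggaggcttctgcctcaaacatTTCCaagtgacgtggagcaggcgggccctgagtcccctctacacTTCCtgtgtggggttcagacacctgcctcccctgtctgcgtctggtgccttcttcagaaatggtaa
The Cd3d window held 6 matches to GGAA, the Cd3g window 2 and the Cd3e window 5. A match was present in 96.0% of the 32851 promoter windows of the same length, with a median of 3 per window. CANNTG matched at 1 position in Cd3d, 4 in Cd3g and 2 in Cd3e (72.3% of all windows held it), and GATA at 2, 2 and 0 positions (57.9%). TGTGGT was found in none of these windows (16.8% of all windows). Each motif was searched separately on both strands, so matches to different motifs can overlap, and a match describes letters only.

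Each library held between 952021 and 3756559 reads in the table, and the libraries stood apart in how many of those reads fell on Rn45s, the ribosomal RNA precursor. In 6 libraries Rn45s took 59.6% to 65.8% of reads, leaving 384360 to 905988 reads for all other genes. These were the 4 wild-type libraries of set b and Il1rn-/- libraries 1 and 2 of set b, called the high-Rn45s libraries below. In the other 8, all of set a and Il1rn-/- libraries 3 and 4 of set b, Rn45s took 20.3% to 40.0% and 1654868 to 2805693 reads were left. Set b wild type therefore had no low-Rn45s library, so within set b genotype and library group were only partly separable. Library group was also tried as a covariate. With it, the set b estimates, also within the difference between the sets, compare only Il1rn-/- libraries 1 and 2 with the 4 wild-type libraries. Over all libraries the members had between 6 and 7483 reads, and 27 of the 36 had at least 50 reads in every library. Fyn, Grap2, Grb2, Nck1, Themis, Sos1, Was, Malt1 and Ptpn2 did not.

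The labelled cell type was checked by marker genes. All 10 markers of CD4 T cells and Tregs were present in the table, and their summed level ran from 2056 to 4320 CPM (reads of a gene scaled to a common library size). B cell markers (8 genes) summed to 17.8 to 72.2 CPM, and markers of CD8 T and NK cells (5 of 7 genes in the table) to 27.1 to 77.5 CPM. Among these, Pax5 was at 0 in 7 libraries, Eomes in 7 and Klrb1c in 10, and Cd8a and Nkg7 were present in all. Gamma-delta T cell markers (4 of 5 in the table) summed to 2.82 to 9.07 CPM, monocyte and macrophage markers (6 of 7) to 1.502 to 26.1 CPM, dendritic cell markers (3 of 6) to 0 to 4.94 CPM and neutrophil markers (1 of 5) to 0 to 2.19 CPM. Plasma cell markers (4 genes) summed to 48.0 to 186 CPM, with Jchain at 0 in 8 libraries and Sdc1 in 9, and Xbp1 and Prdm1 present in all. The CD4 T cell and Treg sum was 2056 to 2358 CPM in the high-Rn45s libraries and 2652 to 4320 CPM in the low-Rn45s libraries, without overlap. The sum does not describe each of its markers. Cd4, one of them, went the other way, at a log2 CPM of 8.36 to 8.55 in the high-Rn45s libraries and 7.95 to 8.20 in the low-Rn45s libraries. The CD8 T and NK cell sum had a median of 62.2 CPM in the former and 38.2 CPM in the latter, and the B cell sum 27.6 and 52.9 CPM. The part of these marker differences in the results below was not tested. In bulk libraries such as these, fewer cells of a type and less RNA per cell cannot be told apart.

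The main comparison asked whether the receptor-proximal genes differed between Il1rn-/- and wild-type Tregs. None of the 36 was called, at an adjusted p under 0.05, in limma's test with set as covariate over 12329 genes (percent called over all genes 0), and none had an unadjusted p under 0.05, against 5.51% of all genes. With limma voom on the recovered reads no gene was called either. The estimates, on the log2 CPM scale as Il1rn-/- minus wild type, were positive for 23 members and negative for 13, with a median of 0.08. Over all genes tested 55.3% were positive, with a median of 0.04. With each library left out in turn, 19 to 26 members were positive and the median was 0.026 to 0.13. The median was 0.044 without wild-type library 3 of set a, 0.13 without Il1rn-/- library 2 of set b, 0.026 without Il1rn-/- library 3 and 0.031 without Il1rn-/- library 4 of that set. With library weights it was 0.0093, and 20 members were positive. The values ran from -0.65 for Cd3e to 0.45 for Ptprc, and the smallest adjusted p among the members was 0.787. The 95% confidence interval lay within -1 to 1 for 35 of the 36 and within -0.5 to 0.5 for 15. Cd3e was the exception, with an interval of -1.33 to 0.03. Il1rn-/- and wild-type values overlapped for all 36 members (0.0324% of all genes did not overlap). With library group in place of set, 17 of the 36 signs changed, 26 were positive, the median was 0.04 and Cd3e stood at 0.05.

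**Figure D1:**
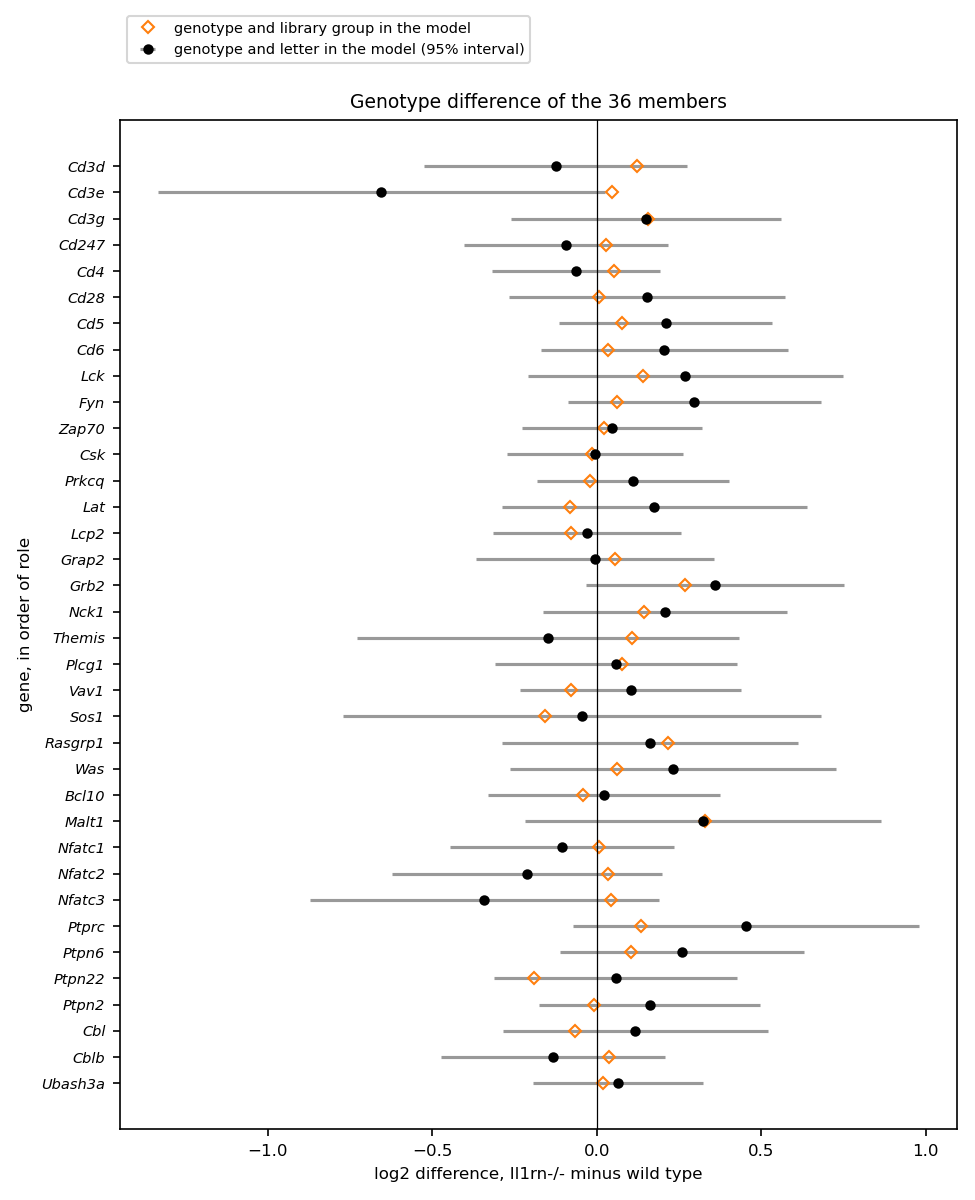
Difference in log2 CPM between Il1rn-/- and wild-type libraries (horizontal axis) for the 36 members in order of role, with set in the model (filled points, 95% confidence intervals as bars) or library group in its place (open diamonds). Cd3e, at -0.65, lies lowest and its interval reaches just past 0; with library group it stands at 0.05.

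Among the receptor and CD3 chains, which hold the phosphorylation motifs of the complex, Cd3e varied most between libraries. Its log2 CPM in set a was 7.71, 7.46 and 6.97 in wild type and 6.98, 7.83 and 7.52 in Il1rn-/-. In set b it was 10.02, 9.96, 10.10 and 10.08 in wild type and 9.63, 10.03, 8.11 and 7.64 in Il1rn-/-. The high-Rn45s libraries all lay at or above 9.63 and the low-Rn45s libraries, including Il1rn-/- libraries 3 and 4 of set b, at or below 8.11, whatever the genotype. The genotype difference was -0.65 ± 0.32 (SE; adjusted p = 0.787), that within set a 0.06 ± 0.45, and that within set b -1.19 ± 0.39 (SE; adjusted p = 0.254). With library group in the model the set b value was -0.21.

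Cd247, which encodes the zeta chain, stood in set a at 7.44, 7.15 and 7.79 in wild type and 7.76, 7.43 and 7.43 in Il1rn-/-. The set b values of Cd247 were 8.34, 8.13, 7.98 and 7.87 in wild type and 7.98, 7.76, 8.15 and 7.55 in Il1rn-/-. Its groups overlapped in both sets, and the genotype difference was -0.09 ± 0.15 (SE; adjusted p = 0.909). Of its exon sequence in GENCODE M21, 68.5% overlaps exons of Pou2f1 and Gm16565 and the strand of counting is not given, so its level is uncertain. Cd3d read 7.36, 6.82 and 7.96 in wild type and 7.62, 7.68 and 7.57 in Il1rn-/- in set a. It read 8.75, 8.65, 8.23 and 8.38 in wild type and 8.21, 8.37, 8.28 and 7.54 in Il1rn-/- in set b. The wild-type libraries of set b were all above those of set a, and the genotype difference of Cd3d was -0.13 ± 0.19 (SE; adjusted p = 0.905). Cd3g, the remaining chain, ranged from 7.81 to 9.46 over the libraries and differed by 0.15 ± 0.20 (SE; adjusted p = 0.885) between genotypes.

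**Figure D2:**
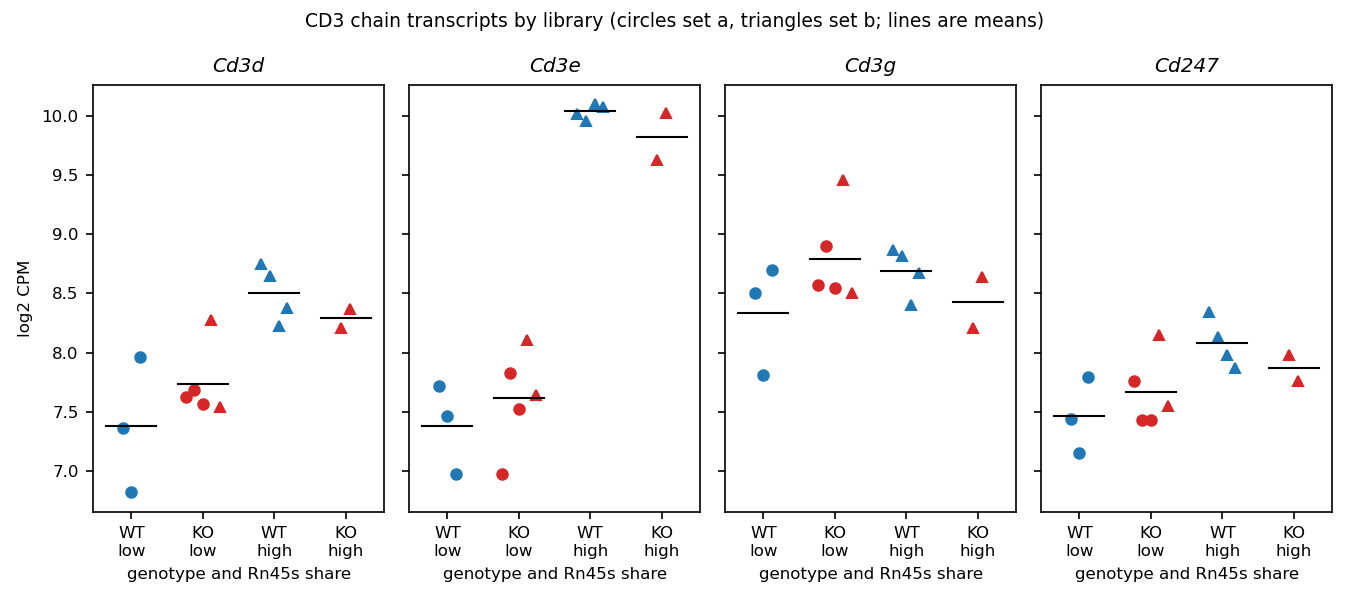
Log2 CPM (vertical axis) of Cd3d, Cd3e, Cd3g and Cd247 in each of the 14 libraries, split by genotype and Rn45s group (horizontal axis; WT wild type, KO Il1rn-/-; circles set a, triangles set b; lines are means). Cd3e lies between 9.63 and 10.10 in the 6 high-Rn45s libraries and between 6.97 and 8.11 in the other 8, a gap that Cd3g does not have.

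Within a library, the difference between chains does not depend on how libraries were scaled. Cd3e minus Cd3d was 1.27 to 1.88 log2 units in the high-Rn45s libraries and -0.99 to 0.65 in the low-Rn45s libraries. Cd3e minus Cd3g was 1.14 to 1.70 in the former and -1.73 to -0.35 in the latter. Cd3d minus Cd3g was -0.29 to 0.003 and -1.22 to -0.74. None of these pairs overlapped between the library groups, and both genotypes were found on each side. Exons of Cd3e overlap those of Gm48719, on the opposite strand, over 9.23% of their length.

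Of the surface receptors, Cd4 encodes the coreceptor that brings Lck to the receptor. It stood in set a at 8.03, 8.15 and 7.95 in wild type and 8.05, 8.08 and 7.97 in Il1rn-/-. In set b its levels were 8.45, 8.53, 8.47 and 8.36 in wild type and 8.46, 8.55, 8.20 and 8.20 in Il1rn-/-. All 8 set b values lay above all 6 set a values, while the genotypes overlapped in each set. The genotype difference of Cd4 was -0.06 ± 0.12 (SE; adjusted p = 0.923), with an interval of -0.32 to 0.19. Cd5, which dampens receptor signals and whose surface level follows their strength, was at 8.51, 8.15 and 8.52 in wild type and 8.40, 8.49 and 8.36 in Il1rn-/- in set a. The set b values of Cd5 were 8.04, 7.85, 8.004 and 7.98 in wild type and 7.77, 8.22, 8.72 and 8.58 in Il1rn-/-. Within set b, Il1rn-/- libraries 3 and 4 were the highest, and the genotype difference was 0.21 ± 0.15 (SE; adjusted p = 0.81), or 0.08 with library group.

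Cd28, the main costimulatory receptor, gave 8.03, 8.39 and 7.57 in wild type and 7.52, 7.81 and 7.63 in Il1rn-/- in set a. In set b Cd28 gave 7.56, 7.45, 7.12 and 7.33 in wild type and 7.80, 7.24, 8.44 and 8.10 in Il1rn-/-. The genotype estimates were -0.34 ± 0.27 within set a, but 0.53 ± 0.24 within set b, and groups overlapped in both. The test of that difference between the sets gave 0.87 ± 0.36 (SE; adjusted p = 0.61), with an unadjusted p of 0.026, and 0.49 with library group. Reads of 4 Y-linked genes numbered 609 and 808 in wild-type libraries 1 and 2 of set a, and 374 and 503 in Il1rn-/- libraries 3 and 4 of set b. They numbered 0 to 2 in the other 10. Those 4 libraries held Cd28 at 8.03 to 8.44, and the other 4 low-Rn45s libraries at 7.52 to 7.81. Ptprc (10.72 to 10.86 against 10.05 to 10.69), Cblb (5.69 to 6.25 against 5.32 to 5.67) and Ubash3a (7.51 to 7.66 against 7.20 to 7.48) were likewise apart between these libraries. The ranges of the other members overlapped. The share of all genes apart in this split was not counted, so these members cannot be set against a general rate. The part of this in the values of any member was not tested. Cd6, a receptor related to Cd5, ranged from 8.62 to 9.65 and differed by 0.21 ± 0.18 (SE; adjusted p = 0.834) between genotypes.

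The kinase Lck starts the cascade. Its set a levels were 10.38, 9.85 and 10.27 in wild type and 10.31, 10.21 and 9.98 in Il1rn-/-. The set b levels were 9.83, 9.93, 9.86 and 9.84 in wild type and 9.75, 9.89, 11.14 and 10.57 in Il1rn-/-. Il1rn-/- libraries 3 and 4 of set b stood above every other library, and the other 12 lay between 9.75 and 10.38. The genotype difference of Lck was 0.27 ± 0.23 (SE; adjusted p = 0.83), and 0.14 with library group. Zap70, which binds the phosphorylated chains, varied less. It was 7.61, 7.19 and 7.29 in wild type and 7.24, 7.28 and 7.30 in Il1rn-/- in set a. The corresponding set b values were 7.10, 7.20, 7.57 and 7.32 in wild type and 7.23, 7.36, 7.75 and 7.45 in Il1rn-/-. All libraries lay between 7.10 and 7.75, and the genotype difference was 0.05 ± 0.13 (SE; adjusted p = 0.95), with an interval of -0.23 to 0.32.

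Fyn, the second Src family kinase of T cells, ran at 5.89, 6.08 and 6.13 in wild type and 5.71, 6.04 and 6.17 in Il1rn-/- in set a. Set b gave 4.72, 5.46, 5.17 and 4.92 in wild type and 4.97, 5.67, 6.001 and 5.89 in Il1rn-/-. Every high-Rn45s library was below every low-Rn45s library, and within set b the highest Fyn values were those of Il1rn-/- libraries 3, 4 and 2. The genotype difference was 0.30 ± 0.18 (SE; adjusted p = 0.792), or 0.56 ± 0.23 within set b, where it was 0.25 with library group. Csk, which holds Src kinases inactive, and Prkcq, protein kinase C theta, differed between genotypes by -0.0049 ± 0.13 and 0.11 ± 0.14. Csk ranged from 6.35 to 7.02 and Prkcq from 7.32 to 8.29 over the libraries. Across the 5 kinases the genotype estimates ran from -0.0049 to 0.30, and none had an unadjusted p under 0.05.

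The scaffold Lat, on which Zap70 acts, had set a levels of 8.55, 7.90 and 8.20 in wild type and 8.15, 8.15 and 8.09 in Il1rn-/-. Its set b levels were 7.58, 7.40, 7.47 and 7.47 in wild type and 7.11, 7.27, 8.87 and 8.18 in Il1rn-/-. The high-Rn45s libraries lay at or below 7.58 and the low-Rn45s libraries at or above 7.90. The genotype difference of Lat was 0.18 ± 0.22 (SE; adjusted p = 0.882) and turned to -0.08 with library group. Grb2 links Lat to the Ras exchange factor Sos1. It read 4.42, 4.15 and 4.17 in wild type and 3.98, 4.31 and 4.72 in Il1rn-/- in set a. For set b the values were 3.44, 3.95, 3.55 and 3.60 in wild type and 4.16, 4.41, 3.86 and 4.37 in Il1rn-/-. All 4 Il1rn-/- values except library 3 exceeded the wild-type values of set b, and the difference was 0.56 ± 0.24 (SE; adjusted p = 0.307) in that set and 0.36 ± 0.19 (SE; adjusted p = 0.787) over both. The set b values of Grb2 rest on few reads, 10 to 22 in wild type and 29 to 61 in Il1rn-/-. Lcp2 differed by -0.03 ± 0.14, Grap2 by -0.0058 ± 0.17, Nck1 by 0.21 ± 0.18 and Themis by -0.15 ± 0.28. Their ranges over all libraries were 7.49 to 8.21, 3.85 to 4.62, 4.31 to 5.56 and 2.70 to 5.11. Across the 6 adaptors 3 estimates were positive and 3 negative.

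Rasgrp1, the exchange factor that activates Ras downstream of diacylglycerol, was the member with the smallest p for a difference between the sets. Set a gave 7.11, 7.35 and 6.43 in wild type and 7.59, 7.66 and 7.97 in Il1rn-/-, and set b gave 7.33, 7.24, 7.28 and 7.37 in wild type and 7.34, 7.31, 6.25 and 7.11 in Il1rn-/-. In set a the Il1rn-/- values all lay above the wild-type values, by 0.78 ± 0.27 (SE; adjusted p = 1), with an unadjusted p of 0.0106. In set b the estimate was -0.30 ± 0.24 (SE; adjusted p = 0.558), or 0.02 with library group, and the groups overlapped. The difference between the sets was -1.08 ± 0.36 (SE; adjusted p = 0.61), with an unadjusted p of 0.0079, and -0.75 with library group. The 4 libraries with Y-linked reads held Rasgrp1 at 6.25 to 7.35 and the other 4 low-Rn45s libraries at 6.43 to 7.97, a mean difference of -0.46 whose part in these values was not tested. The 6 high-Rn45s libraries lay within 7.24 to 7.37, while Il1rn-/- library 3 of set b stood at 6.25. Plcg1 (phospholipase C-gamma 1), Vav1, Sos1 and Was, the Wiskott-Aldrich syndrome protein, had genotype differences of 0.06 ± 0.18, 0.10 ± 0.16, -0.04 ± 0.35 and 0.23 ± 0.24. Their ranges over all libraries were 5.80 to 7.13, 6.58 to 7.54, 1.75 to 3.86 and 3.86 to 6.10. Sos1 had the largest error of the 4.

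Nfatc3 encodes one of the calcineurin-controlled factors. Set a levels of Nfatc3 were 5.34, 5.08 and 5.17 in wild type and 5.23, 4.99 and 5.73 in Il1rn-/-. Its set b levels were 6.54, 6.33, 6.57 and 6.63 in wild type and 6.83, 6.37, 5.24 and 4.89 in Il1rn-/-. The high-Rn45s libraries were at or above 6.33 and the others at or below 5.73. The genotype estimate of Nfatc3 in set b was -0.68 ± 0.32 (SE; adjusted p = 0.322), and 0.09 with library group. Over both sets it was -0.34 ± 0.25 (SE; adjusted p = 0.81). Nfatc1, which ranged from 5.69 to 6.53, and Nfatc2, which ranged from 4.75 to 6.33, differed by -0.11 ± 0.16 and -0.21 ± 0.20. Bcl10 and Malt1 form, with Carma1, the complex that carries protein kinase C signals to NF-κB, and differed by 0.02 ± 0.17 and 0.32 ± 0.26. In set a the estimate for Malt1 was 0.79 ± 0.37 (unadjusted p = 0.0488, adjusted p = 1) with overlapping groups. Malt1 stood at 4.44 to 5.10 in the 4 libraries with Y-linked reads and at 4.83 to 6.20 in the other 4 low-Rn45s libraries, a mean difference of -0.69 whose part in the estimate was not tested. Over all libraries Bcl10 ranged from 5.74 to 6.75 and Malt1 from 4.01 to 6.20.

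The phosphatase CD45, encoded by Ptprc, activates Src kinases by removing their inhibitory phosphate. Its levels were 10.86, 10.72 and 10.05 in wild type and 10.48, 10.69 and 10.68 in Il1rn-/- in set a. Set b levels were 9.42, 9.53, 9.44 and 9.37 in wild type and 9.50, 9.61, 10.80 and 10.80 in Il1rn-/-. Here too the library groups did not overlap, with the high-Rn45s libraries at or below 9.61 and the others at or above 10.05. The genotype estimate was 0.45 ± 0.25 (SE; adjusted p = 0.787), the highest of the 36, and 0.13 with library group. Ptpn22, the phosphatase that opposes Lck and Zap70 together with Csk, had set a levels of 7.25, 7.34 and 6.90 in wild type and 6.66, 7.15 and 6.79 in Il1rn-/-. Its set b levels were 6.08, 6.02, 6.35 and 6.36 in wild type and 6.34, 5.93, 6.88 and 6.96 in Il1rn-/-. The genotypes overlapped in each set, and the genotype difference was 0.06 ± 0.18 (SE; adjusted p = 0.954), or -0.19 with library group.

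Ptpn6 encodes SHP-1. Its set a levels read 7.76, 7.81 and 8.11 in wild type and 8.12, 7.87 and 7.71 in Il1rn-/-. Over set b they read 7.30, 7.58, 7.72 and 6.999 in wild type and 7.41, 7.48, 8.38 and 8.12 in Il1rn-/-. Il1rn-/- libraries 3 and 4 were the highest of set b, and the genotype difference of Ptpn6 was 0.26 ± 0.18 (SE; adjusted p = 0.801). Cbl, a ubiquitin ligase that marks receptor-proximal kinases for degradation, stood in set a at 6.81, 7.32 and 5.93 in wild type and 6.89, 6.92 and 7.13 in Il1rn-/-. The set b levels of Cbl were 5.81, 6.04, 6.41 and 5.99 in wild type and 6.02, 5.92, 5.67 and 6.58 in Il1rn-/-. The genotypes overlapped in each set and the difference was 0.12 ± 0.19 (SE; adjusted p = 0.91). Cblb, Ptpn2 and Ubash3a, the remaining brakes, differed by -0.13 ± 0.16, 0.16 ± 0.16 and 0.06 ± 0.12, and ranged from 5.32 to 6.63, 5.49 to 6.65 and 7.20 to 7.66.

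**Figure D3:**
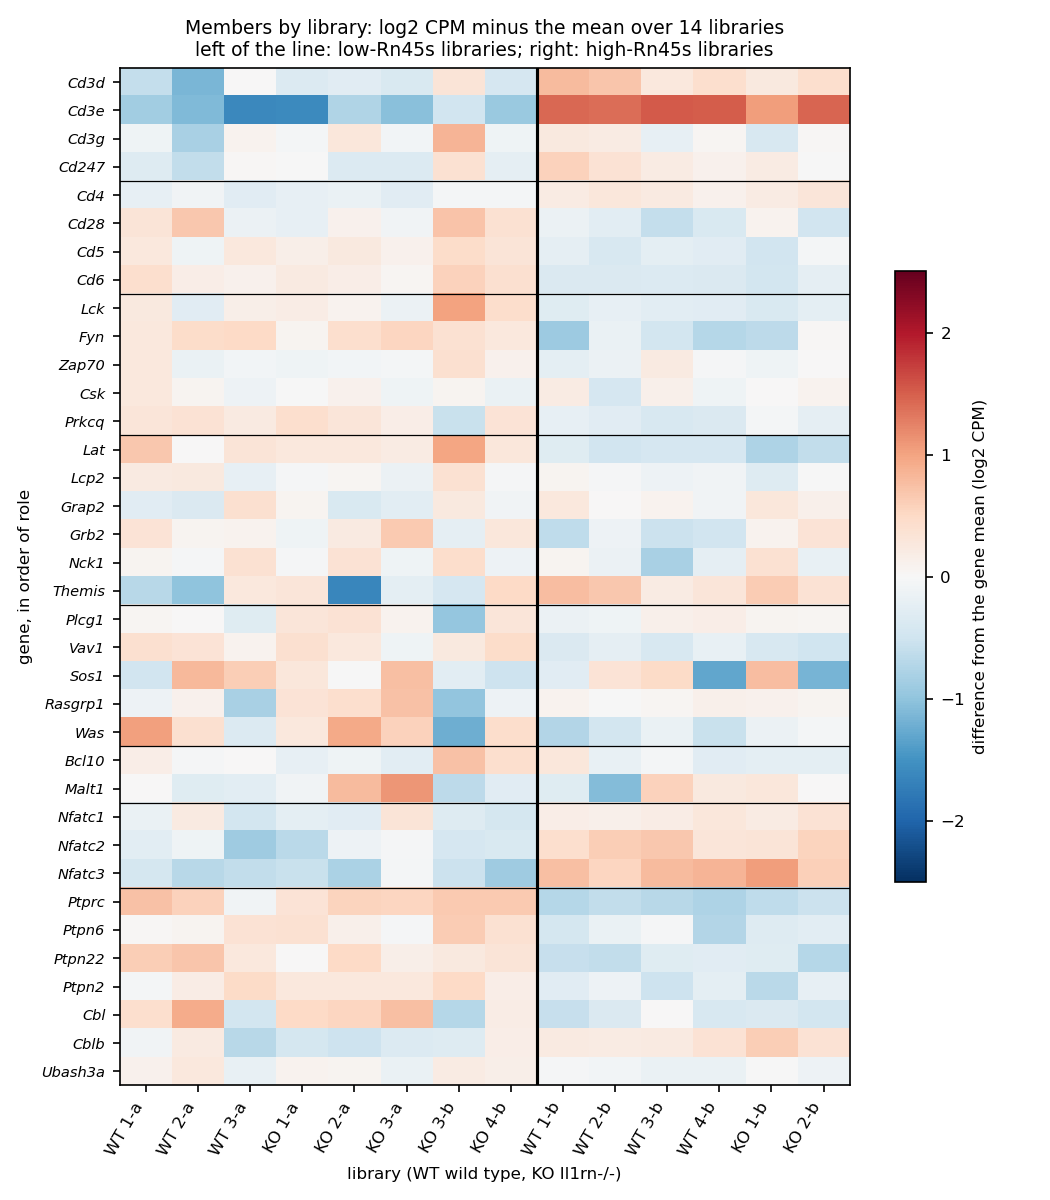
Deviation of each member's log2 CPM from its mean over the 14 libraries, with a row per gene in order of role and a column per library, low-Rn45s libraries left and high-Rn45s libraries right of the vertical line. The 6 high-Rn45s libraries lie right of the line, where Cd3e and Nfatc3 are above and Ptprc and Lat below their gene means.

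Within set a no member was called (0 of 12329 genes), and 2 of 36 members had an unadjusted p under 0.05, Rasgrp1 and Malt1 (1.97% of all genes). In 3 members the values did not overlap: Plcg1 and Rasgrp1 were higher and Bcl10 lower in Il1rn-/- (7.97% of all genes did not overlap, 4.36% higher and 3.61% lower). Y-linked reads were found in wild-type libraries 1 and 2 of set a but in none of its Il1rn-/- libraries. Their part in these differences was not tested. Within set b no member was called either, with 6 of 36 at an unadjusted p under 0.05 against 15% of all genes. Those 6 were Cd3e (-1.19 ± 0.39) and Nfatc3 (-0.68 ± 0.32), with negative estimates, and Ptprc (0.74 ± 0.32), Fyn (0.56 ± 0.23), Grb2 (0.56 ± 0.24) and Cd28 (0.53 ± 0.24), with positive ones. With library group in the model these values were -0.21, 0.09, 0.12, 0.25, 0.65 and 0.15. They rest on Il1rn-/- libraries 1 and 2 against the 4 wild-type libraries of set b. No member's values failed to overlap (4.28% of all genes). In set b, Y-linked reads numbered 374 and 503 in Il1rn-/- libraries 3 and 4 and 0 to 2 in the other libraries. Their part in the set b differences was not tested. Without Il1rn-/- library 2 of set b, which left a single high-Rn45s library in that group, Cd3e was called in set b at -1.58 (adjusted p = 0.0441, against 0.0441 to 0.993 over the alternatives), among 230 genes called.

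The difference between the sets in the genotype effect was called for no member (0 of 12329 genes; smallest adjusted p among members 0.61). Unadjusted p was under 0.05 for 3 of 36 members, Rasgrp1, Cd28 and Cd3e (-1.25 ± 0.60), and for 7.85% of all genes. With library group in the model the differences were -0.75 for Rasgrp1 (unadjusted p = 0.0389), 0.49 for Cd28 (unadjusted p = 0.131) and -0.27 for Cd3e (unadjusted p = 0.432). More than 2 Y-linked reads were found only in wild-type libraries 1 and 2 of set a and Il1rn-/- libraries 3 and 4 of set b. These reads thus line up with this contrast, and library group in the model leaves the set a libraries in it. Their part in these differences was not tested.

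**Figure D4:**
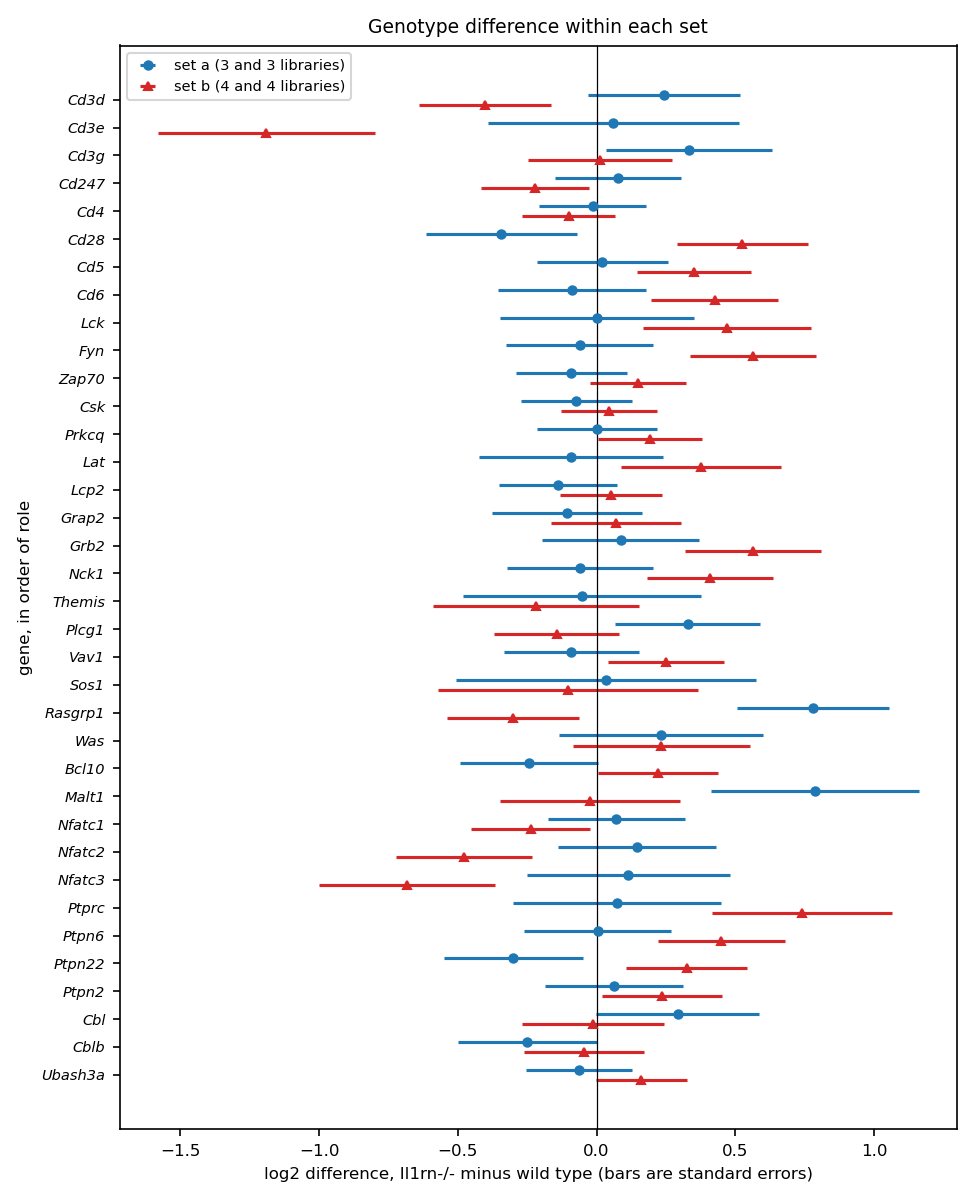
Difference in log2 CPM between Il1rn-/- and wild type (horizontal axis) for each member (vertical axis) in set a (circles) and set b (triangles), with standard errors as bars. Rasgrp1 lies at 0.78 (circle) but at -0.30 (triangle), and Cd3e at 0.06 (circle) but at -1.19 (triangle).

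Between set b and set a, after genotype, 14 of the 36 members were called (19.5% of all genes), 8 higher in set b (8.48% of all genes) and 6 lower (11%). The median SE was 0.18 for the members and 0.29 over all genes, and a difference of the same size is more easily called at a smaller SE. The part of this in the share called was not tested. Higher in set b were Cd3e (2.03 ± 0.33, SE, adjusted p = 0.00117), Cd3d (0.80 ± 0.19), Nfatc3 (0.92 ± 0.26), Themis (0.88 ± 0.28), Nfatc2 (0.61 ± 0.20), Cblb (0.54 ± 0.16), Cd247 (0.47 ± 0.15) and Cd4 (0.36 ± 0.12). Lower in set b were Cbl (-0.78 ± 0.19, adjusted p = 0.0108), Was (-0.84 ± 0.24), Ptprc (-0.77 ± 0.25), Fyn (-0.65 ± 0.19), Ptpn22 (-0.65 ± 0.18) and Prkcq (-0.51 ± 0.14). Only Cd4 did not overlap between the sets, and was higher in set b (1.5% of all genes did not overlap, 0.73% higher). Leaving out each library in turn gave 6 to 17 called members, and Cd3e, Cd3d, Cbl and Prkcq were called in all 14 such fits, while the other 10 lost the call in at least one. The call of Cd4 was also lost without the filter on low values (adjusted p = 0.0624), with the replicate block (adjusted p = 0.0512) and with TMM factors (adjusted p = 0.0505), and that of Ptprc when each library was centred on its median (adjusted p = 0.064). With library group in the model no member was called, and the median over members moved from -0.16 to 0.17. In wild type, set and library group coincide, so that fit can separate them only through the Il1rn-/- libraries. The cause of the lost calls was not tested.

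Between the library groups, described here without a test, 11 of the 36 members did not overlap (14.9% of all genes, 6.56% higher and 8.35% lower in the high-Rn45s libraries). Cd3e, Cd4, Nfatc2 and Nfatc3 were higher in the high-Rn45s libraries, and Cd6, Fyn, Lat, Vav1, Ptprc, Ptpn22 and Ptpn2 lower. Among these 11 the mean differences were 2.44 for Cd3e, 1.34 for Nfatc3 and 0.84 for Nfatc2, and -1.16 for Ptprc, -0.88 for Lat, -0.84 for Fyn and -0.81 for Ptpn22. The difference exceeded 0.5 in size for 17 of 36 members, against 54.1% of all genes. Its median size was 0.49 over the members and 0.56 over all genes tested. It had the same sign in both genotypes for 32 members, a share that was not counted over all genes. Among the Il1rn-/- libraries of set b, libraries 1 and 2 did not overlap libraries 3 and 4 in 22 members (51.6% of all genes). Libraries 3 and 4 also held 374 and 503 Y-linked reads, against 1 and 2 in libraries 1 and 2. Library group and Y-linked reads cannot be told apart in this split. Within the high-Rn45s libraries, Grb2, Was and Cblb were higher and Lat lower in Il1rn-/- without overlap (11.5% of all genes, 6.29% higher and 5.22% lower), and within the low-Rn45s libraries no member was (1.86%). In the high-Rn45s libraries Grb2 had only 10 to 22 reads in wild type and 29 and 41 in Il1rn-/-. Was had 26 to 42 reads in wild type and 50 and 63 in Il1rn-/-.

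Levels can be set between genes only per length, here as the log2 of CPM per kilobase of exon in GENCODE M21. In wild type, Lck (8.78 ± 0.23, SD, n = 7) stood highest, followed by Cd3g (8.51 ± 0.36), Cd3e (8.35 ± 1.44), Ptprc (7.56 ± 0.64) and Lat (7.48 ± 0.44). At the other end were Themis (1.92 ± 0.67), Grap2 (1.73 ± 0.27) and Sos1 (0.0073 ± 0.75). Of the 35 steps between neighbours in this order, 2 exceeded the larger of the neighbours' SDs, between Ubash3a and Plcg1 and between Grap2 and Sos1. All other neighbours lay within their spread. The order pools libraries that differed: Cd3e averaged 9.42 in the high-Rn45s libraries, above Lck at 8.64. In the low-Rn45s libraries it averaged 6.98, below Lck (9.13), Cd3g (8.59), Ptprc (8.28), Lat (7.95) and Cd6 (7.74).

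**Figure D5:**
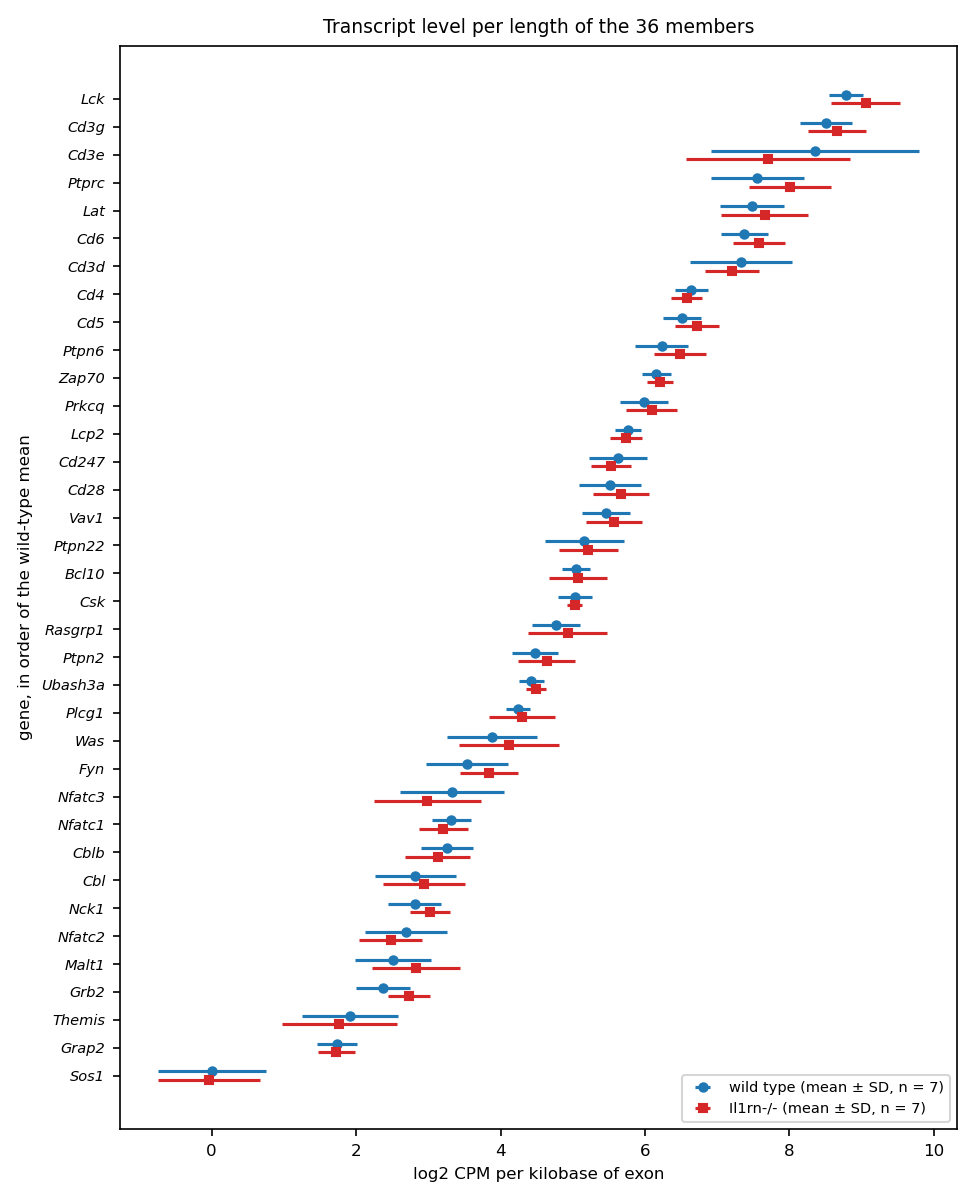
Level of each member as log2 CPM per kilobase of exon in wild type (circles) and Il1rn-/- (squares), as mean and SD of 7 libraries each, in the order of the wild-type mean. Lck, at 8.78, heads this order over all wild-type libraries and Sos1 closes it, although Cd3e stands above Lck in the high-Rn45s libraries (9.42 against 8.64), and the SD bars of the genotypes overlap at every gene.

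Beyond the members, 112 other genes of the pathway were taken from 7 lists, and 110 of them were tested. None was called for genotype, and 5 had an unadjusted p under 0.05 (5.51% of all genes). These were Trbc1, a constant region of the receptor's beta chain (0.82 ± 0.37), Ndfip1, an adaptor of ubiquitin ligases (0.65 ± 0.27), Vav3, an exchange factor (0.49 ± 0.23), Wasf2, an actin regulator (-0.29 ± 0.13), and Egr1, an immediate early transcription factor induced by receptor signals (-0.54 ± 0.24). By list, 3 of 3 receptor constant regions had positive estimates, 12 of 21 other proximal kinases, adaptors and scaffolds, and 14 of 24 other brakes. Positive estimates numbered 9 of 16 for calcium and calcineurin genes, 6 of 17 for Ras, MAP kinase and PI3 kinase genes, 9 of 15 for actin regulators and 7 of 14 for transcripts induced by the antigen receptor. Between set b and set a, 10 of the 110 were called higher and 15 lower, beside 8.48% and 11% of all genes.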

How the data were processed

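Per the labels' protocols, Smart-Seq2 libraries were made from 50000 sorted cells per sample, and transcripts were counted by Cuffquant (version 2.2.1). TopHat2 2.0.10, BWA, Cuffnorm and Cufflinks 2.2.1 are listed in the submitters' processing notes; no build is given in the sources used here. The authors deposited log2 CPM values per gene. Library sizes given by TMM factors were 0.979 to 1.01 times those that the deposited values imply, relative to the mean ratio. Values were whole multiples of 1 read throughout (100% within 0.001), so reads were recovered, and the depth, 952021 to 3756559 reads per library, is known. PCR reads carry no molecular identifiers.

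From the deposited values, 12329 genes with CPM over 1 in at least 3 of 14 libraries were tested with limma 3.58.1 (R 4.3.3; intensity trend, two-sided moderated test, Benjamini-Hochberg adjustment). All groups shared one estimate of the spread. Set was a covariate for the genotype difference, and 4-group contrasts gave the others. Exon lengths came from GENCODE M21, promoters from RefSeq (30 of the 36 members matched). The test was checked on simulated counts with a shared dispersion and genotype effects only. Those counts held no expression differences between sets or library groups, so the check does not cover them. Values in every library are given for 7 chosen members and for those with the smallest p in each comparison. The members and lists were chosen with earlier results of these data known. Alternatives changed the filter, prior count, scaling, variance model, libraries and covariates.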

Additional observations from a re-analysis of the deposited data

How the results depend on the processing

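The genotype difference called 0 genes in the main comparison and under each alternative scaling, filter, prior count and variance model, and 0 of the 36 members throughout. It called 2 genes when only the 8 low-Rn45s libraries were used and 13 with the 6 high-Rn45s libraries, none of them among the members. In set a, leaving out each library gave 0 to 1 called genes (1 without wild-type library 3). In set b the count was 4 with TMM factors and 4 with library group as covariate, and 0 to 230 when each library was left out (3 without wild-type library 1, 7 without Il1rn-/- library 1, 230 without Il1rn-/- library 2). Members called in set b then ranged from 0 to 1. For set b minus set a, 2408 genes became 4091 with library weights and 12 with library group, and 1355 to 3376 when each library was left out; called members became 0 with library group and 6 to 17 with each library left out. The fewest, 6, came without wild-type library 2 of set a, 8 were called without wild-type library 1 of set a or Il1rn-/- library 1 of set b, and 9 without Il1rn-/- library 2 of set a, wild-type library 1 or 2 of set b, or Il1rn-/- library 2 of set b. With library group, 14 of the 36 members changed sign for set b minus set a, among them 3 of the 14 called, Nfatc2 (-0.075), Nfatc3 (-0.24) and Ptprc (0.17); the cause was not tested.

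Same-numbered libraries of the 2 genotypes did not deviate together (correlations -0.15 to 0.0005). With the replicate number as a block, 0 genes were called for the genotype difference, and 13 members and 2572 genes for set b minus set a.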
